A study of Homo sapiens with 8 samples.

Results

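The OAS family is a set of interferon-inducible proteins of like fold, most of which sense double-stranded RNA and then make 2-5A. Its members here were the 4 genes whose rows carry the names OAS1, OAS2, OAS3 and OASL, out of 60649 gene entries in each abundance table and 19960 protein-coding genes. Each of the 8 tables had a row for all 4, with OAS2 listed at 0 in 1 library.

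The libraries came from HCT116, a human colorectal cancer line, and from UF1hypo, a single HCT116-derived clone in which exon 4 of 1 UHRF1 allele was removed. UHRF1 reads hemimethylated DNA and recruits DNMT1, so both act in maintaining DNA methylation. Each line was transduced with lentivirus for shScr, a non-silencing shRNA, or for shUHRF1, an shRNA against UHRF1, and was kept as a puromycin-selected stable pool. The 4 groups (HCT116 shScr, HCT116 shUHRF1, UF1hypo shScr and UF1hypo shUHRF1) held 2 polyA RNA libraries each, and no treatment with interferon or any ligand was labelled. The labels do not say that the 2 libraries of a group were separate cultures, so the p-values measure the spread between libraries, which may be technical. UF1hypo was 1 clone, so the effect of the UHRF1 allele cannot be told apart from that of the clone.

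OAS1, OAS2 and OAS3 are enzymes that bind double-stranded RNA and then make 2′-5′-linked oligoadenylates, called 2-5A. 2-5A acts as a second messenger of the antiviral response. OASL has the same fold but lacks the synthetase activity, and acts with the RNA sensor RIG-I. All 4 genes are textbook interferon-stimulated genes: a complex that includes STAT2 and IRF9 binds a promoter element called ISRE, built on 2 GAAA blocks.

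OAS1 (ENSG00000089127.15) lies at chr12:112905856-112933219, OAS3 (ENSG00000111331.14) at chr12:112938051-112976460 and OAS2 (ENSG00000111335.14) at chr12:112978395-113011723, all on the forward strand of GRCh38. OASL (ENSG00000135114.13) lies apart on the same chromosome, at chr12:121017763-121039242 on the reverse strand. An antisense lncRNA (RP1-71H24.1) runs across OAS1, OAS3 and OAS2 and was listed at 0 TPM in every library. Whether reads were counted by strand is not given in the sources used here, so reads from the sense and antisense genes cannot be told apart.

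The promoters of OAS1 and OAS3 are shown as the members matched in the promoter table used here, 2 of 4, and as neighbours that were both higher in UF1hypo than in HCT116 with shScr. The 250 bases before the RefSeq start of each gene are printed in lower case (GRCh38.p14, forward strand, chr12:112906712-112906961 for OAS1 and chr12:112938224-112938473 for OAS3). Both windows lie inside the gene spans given above, which begin further upstream. Which start these cells used was not tested. Capitals mark the matches to GAAANNGAAA, the core of the ISRE, or to GAAANGAAA, the same blocks 1 base closer, which was added after the OAS1 sequence had been read.
OAS1: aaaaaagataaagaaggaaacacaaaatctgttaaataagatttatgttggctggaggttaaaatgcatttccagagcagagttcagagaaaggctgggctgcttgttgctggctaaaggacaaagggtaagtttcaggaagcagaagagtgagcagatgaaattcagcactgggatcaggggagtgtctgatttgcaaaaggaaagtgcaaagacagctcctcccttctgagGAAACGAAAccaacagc
OAS3: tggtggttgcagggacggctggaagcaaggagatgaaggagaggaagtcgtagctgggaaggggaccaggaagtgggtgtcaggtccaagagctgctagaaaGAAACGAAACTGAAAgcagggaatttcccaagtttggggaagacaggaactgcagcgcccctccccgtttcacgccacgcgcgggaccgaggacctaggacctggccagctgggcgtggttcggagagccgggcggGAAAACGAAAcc

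In OAS3, GAAANNGAAA matched at 143 to 134 and at 12 to 3 bases before the start, and GAAANGAAA matched at 148 to 140 bases, overlapping the first of these. In OAS1 only GAAANGAAA matched, at 17 to 9 bases before the start. On both strands, GAAANNGAAA was found in 3.02% and GAAANGAAA in 2.69% of 35116 promoter windows of the same length, and 5.48% held at least 1 of them. The windows also differed in CpG sites, the target of DNA methylation. The OAS1 window held 1 CpG at 42.8% GC, and 14.7% of all windows held as few or fewer. The OAS3 window held 15 CpG sites at 60.0% GC, against a median of 11 over all windows. A match is a description of these letters and no measurement of binding or methylation in these cells.

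Expression was measured as TPM, a share of all transcripts in the library that is scaled to transcript length. Libraries held an estimated 5.42 to 7.83 Gb of aligned bases, inferred from the coverage and FPKM values of each library. With shScr, UHRF1 was 87.5 and 98.4 TPM in HCT116 and 47.3 and 50.6 TPM in UF1hypo. With shUHRF1 it was 31.7 and 32.7 TPM in HCT116 and 34.1 and 21.1 TPM in UF1hypo. The knockdown libraries were thus below their own controls in both lines, by a log2 fold change of -1.50 ± 0.22 (SE) in HCT116 (limma adjusted p = 0.056) and -0.84 ± 0.22 in UF1hypo (adjusted p = 0.041). Neither passed both thresholds used for a call. Of 7 colorectal epithelial markers, 6 were above 1 TPM in every group, while VIL1 was at most 0.142 TPM. The 13 leukocyte markers summed to 2.21 to 3.36 TPM in the first 3 groups and 7.54 to 12.7 TPM in UF1hypo shUHRF1, where CD3D was highest and PTPRC, the pan-leukocyte marker, was 0.0561 and 0.0728 TPM. The 3 endothelial markers summed to at most 0.587 TPM. The 6 fibroblast markers summed to 21.3 to 28.9 TPM, and to 43.3 to 72.0 TPM in UF1hypo shUHRF1. In that group COL1A1 supplied most of this sum, THY1 reached 5.72 and 4.93 TPM, and COL1A2 was listed at 0. The part of these markers in the results below was not tested.

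The OAS genes were low in HCT116, with OAS3 the highest, and stepped up in 2 stages. OAS1, OAS3 and OASL were already higher in UF1hypo without knockdown, and all 4 rose further after UHRF1 knockdown in UF1hypo. OAS2 kept a low level in UF1hypo shScr and appeared after the knockdown. With the same shRNA in HCT116, the OAS3 libraries lay within the range of their controls, and those of OASL lay 1 above and 1 below theirs. In bulk RNA, more cells expressing a gene and more RNA per cell cannot be told apart.

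**Figure D1:**
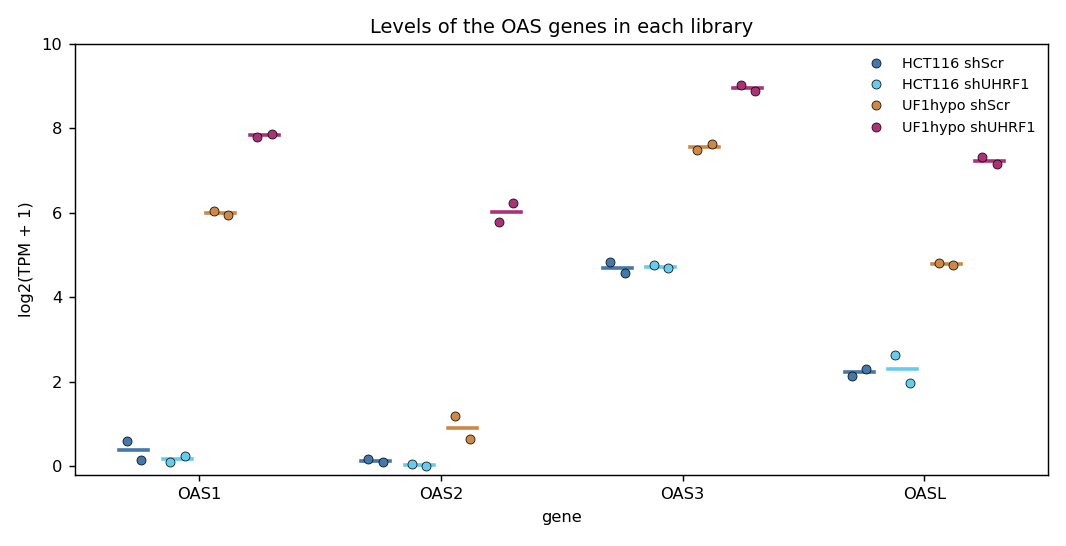
Levels of OAS1, OAS2, OAS3 and OASL on a log2(TPM + 1) axis, with 1 point per library, a bar at the mean of each group and 4 groups per gene. OAS1, OAS3 and OASL step up in both UF1hypo groups, and OAS2 reaches 54.0 and 74.7 TPM in UF1hypo shUHRF1 alone.

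OAS1, the smallest of the synthetases, was 0.513 and 0.117 TPM in HCT116 shScr and 0.0800 and 0.192 TPM in HCT116 shUHRF1. It was 65.0 and 60.8 TPM in UF1hypo shScr, and 220.1 and 235 TPM in UF1hypo shUHRF1. The 2 HCT116 groups overlapped below 1 TPM, while both UF1hypo groups lay far above them and apart from each other. The ratio of mean TPM between UF1hypo and HCT116 with shScr was 199.7, with a denominator below 1 TPM. The ratio for knockdown in UF1hypo was 3.61, from 62.9 ± 2.93 to 227 ± 10.3 TPM (SD, n = 2).

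OAS2, a synthetase with 2 catalytic-like domains, was 0.122 and 0.0722 TPM in HCT116 shScr, 0.0401 TPM in one HCT116 shUHRF1 library and listed at 0 in the other. In UF1hypo shScr it was 1.27 and 0.567 TPM. In UF1hypo shUHRF1 it was 54.0 and 74.7 TPM. OAS2 therefore stayed near 1 TPM in the UF1hypo libraries in which OAS1 exceeded 60 TPM. Its mean went from 0.918 ± 0.497 to 64.4 ± 14.6 TPM (SD, n = 2) after knockdown, a ratio of 70.1.

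OAS3, the largest synthetase, had the highest level of the 4 in both HCT116 groups. It was 27.4 and 22.9 TPM in HCT116 shScr and 26.2 and 24.7 TPM in HCT116 shUHRF1. It was 179 and 197 TPM in UF1hypo shScr and 519.6 and 475 TPM in UF1hypo shUHRF1. The 2 HCT116 groups overlapped, and the UF1hypo groups lay above them in 2 separate steps. The ratios of mean TPM were 7.48 for UF1hypo against HCT116 with shScr and 2.64 for knockdown in UF1hypo.

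OASL, the catalytically inactive member, was 3.38 and 3.97 TPM in HCT116 shScr and 5.19 and 2.93 TPM in HCT116 shUHRF1. It was 27.1 and 26.1 TPM in UF1hypo shScr, and 158 and 141 TPM in UF1hypo shUHRF1. The 2 HCT116 groups overlapped and the other groups did not. The ratios of mean TPM were 7.23 between the lines and 5.64 for knockdown in UF1hypo.

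Tests used limma on log2(TPM + 1) over all protein-coding genes with more than 1 TPM in at least 1 library of the comparison. A gene was called at an adjusted p (Benjamini-Hochberg) under 0.05 and a log2 fold change beyond 1 in size. Folds of low genes are understated on this scale. An exact permutation test of 2 against 2 libraries cannot go below p = 0.33, so the tests rest on the spread pooled over genes and groups.

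The first question was whether UHRF1 knockdown alone changed these genes in HCT116. None of the 4 members was called. OAS3 had a log2 fold change of 0.02 ± 0.16 (SE) with a 95% interval from -0.33 to 0.38, and OASL of 0.08 ± 0.24 with an interval from -0.46 to 0.62. Both had a limma adjusted p of 1.00. OAS1 and OAS2 were under 1 TPM in all 4 libraries and were not tested. The background was 0.0472% of 12704 genes called higher and 0.0236% called lower, so few genes of any kind were called. In all, 810 genes had an unadjusted p under 0.05.

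The second question was whether the same knockdown changed them in cells that started with less UHRF1. All 4 members were called higher in UF1hypo, against a background of 7.39% of 13620 genes called higher and 1.14% called lower. OAS2 had the largest log2 fold change of the 4, at 5.10 ± 0.25 (limma adjusted p = 1.1e-05), and ranked 18 among all tested genes. OASL rose by 2.45 ± 0.24 (adjusted p = 0.00041). OAS1 rose by 1.84 ± 0.21 (adjusted p = 0.00096). OAS3 rose by 1.40 ± 0.15 (adjusted p = 0.00075). The interval of OAS2, from 4.52 to 5.68, lay above that of OASL, from 1.90 to 2.99. The intervals of OASL and OAS1 overlapped. The median over all tested genes was 0.04. The reference gene ACTB went from 2147 and 2244 to 4728 and 3565 TPM, by 0.90 ± 0.15 (limma adjusted p = 0.0064), and was not called. GAPDH, the other reference gene, changed by -0.17 ± 0.16.

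All 4 were called under every alternative setting. For OAS2 the size depended on the scale, with 6.06 when 0.1 was added in place of 1, 4.33 on FPKM and 3.26 on depth-scaled coverage. To FPKM and coverage 1 was added too, although their values for OAS2 were smaller than TPM. The plain ratio of mean depth-scaled coverage for OAS2 was 88.0, so the 3.26 does not mean a weaker change by coverage. Quantile normalization gave 681 genes higher and 289 lower in place of 1007 and 155. The number called was 2255 without UF1hypo shUHRF1 replicate 2, and 655 without UF1hypo shScr replicate 1. The 2 UF1hypo shUHRF1 libraries differed from each other by GC content, with a Spearman rho across genes of 0.81 between a gene's difference and its GC content, against -0.51 in UF1hypo shScr. With a correction for GC content and length the log2 fold changes were 1.74 for OAS1, 5.04 for OAS2, 1.21 for OAS3 and 2.30 for OASL.

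The third comparison tested the difference between the 2 knockdown effects directly. All 4 members were called with a larger effect in UF1hypo, against 4.54% of 13781 genes called higher and 0.559% called lower. OAS1 and OAS2 were under 1 TPM in every HCT116 library and passed the filter through the UF1hypo libraries alone. For these genes the HCT116 effect was taken near the floor, so the difference rests largely on UF1hypo. The difference was 5.20 ± 0.36 for OAS2 (limma adjusted p = 0.00021), 2.37 ± 0.34 for OASL (adjusted p = 0.0072), 2.03 ± 0.30 for OAS1 (adjusted p = 0.0079) and 1.38 ± 0.22 for OAS3 (adjusted p = 0.010). The calls of OAS2 and OASL held under all alternatives run, while those of OAS1 and OAS3 did not. For OAS1 the limma adjusted p became 0.084 with 0.1 added, 0.055 without HCT116 shUHRF1 replicate 1 and 0.0501 without UF1hypo shScr replicate 2. For OAS3 it became 0.074 without HCT116 shScr replicate 1, 0.061 and 0.075 without HCT116 shUHRF1 replicate 1 and 2, and 0.075 and 0.051 without UF1hypo shScr replicate 1 and 2.

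The fourth comparison set UF1hypo shScr against HCT116 shScr. OAS1, OAS3 and OASL (3 of 4 members) were called higher, against 2.59% of 12856 genes called higher and 0.949% called lower. OAS1 and OAS2 passed the filter through UF1hypo shScr alone, so for them a higher value there was largely set by it. OAS1 differed by 5.62 ± 0.21 on the log2 scale (limma adjusted p = 3e-06) and ranked 5 among all tested genes. OAS3 differed by 2.86 ± 0.16 (adjusted p = 3.1e-05) and OASL by 2.56 ± 0.24 (adjusted p = 0.00054). OAS2 differed by 0.78 ± 0.26 and was not called (adjusted p = 0.15, 95% interval from 0.18 to 1.38). On this scale the intervals of the other 3 members began at 2.03 or above, so they did not reach that of OAS2. As a ratio of mean TPM, however, OAS2 was 9.45 between the lines, beside 7.48 for OAS3 and 7.23 for OASL. The OAS2 ratio comes from means of 0.0972 and 0.918 TPM, near the floor.

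With 0.1 added in place of 1, OAS2 was called at 2.29 (limma adjusted p = 0.042), and on depth-scaled coverage it was 0.13. OAS2 had a log2 fold change of 1.05 without UF1hypo shScr replicate 2, and without UF1hypo shScr replicate 1 it was under 1 TPM and was not tested. The other 3 were called under every alternative. OAS1 ranged from 2.61 on depth-scaled coverage to 7.43 with 0.1 added, and OASL was 1.76 on depth-scaled coverage. The coverage values also had 1 added, which lowers the folds of small values. Plain ratios of mean depth-scaled coverage were 183 for OAS1, 8.76 for OAS2, 7.46 for OAS3 and 9.51 for OASL. This comparison and the knockdown in UF1hypo share the UF1hypo shScr libraries, so their values for a gene are not independent.

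**Figure D2:**
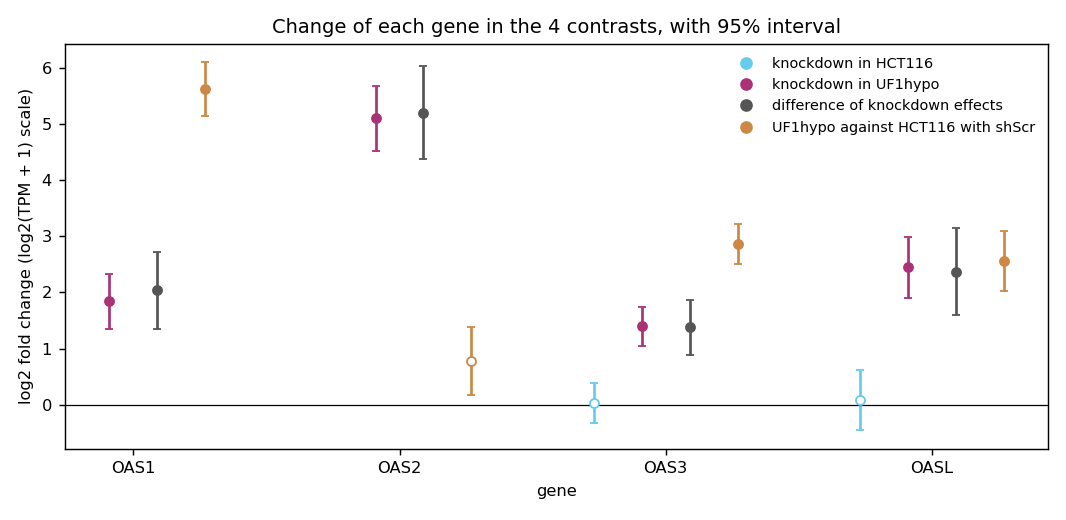
Log2 fold changes of the 4 OAS genes in the 4 contrasts, on the log2(TPM + 1) scale, with 95% intervals from limma, filled where called and open where not. OAS1 has its largest value between the lines (5.62), and OAS2 is at 5.10 for knockdown in UF1hypo and 5.20 for the difference of knockdown effects. OAS1 and OAS2 have no point for knockdown in HCT116, where they were not tested.

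Set beside the UHRF1 mRNA, the order of the groups differed. HCT116 shUHRF1 had less UHRF1 mRNA (31.7 and 32.7 TPM) than UF1hypo shScr (47.3 and 50.6 TPM), but OAS1 was at most 0.192 TPM in the former and at least 60.8 TPM in the latter. OAS3 and OASL had the same order as OAS1 in these 2 groups. UHRF1 protein was not measured in these libraries, and the mRNA of the 2 UHRF1 alleles was not told apart. By western blot, the authors reported a pronounced loss of UHRF1 protein in UF1hypo. The order of the groups by mRNA therefore need not be their order by protein.

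The summed TPM of the 4 genes was 31.4 and 27.1 in HCT116 shScr and 31.5 and 27.8 in HCT116 shUHRF1. In UF1hypo it was 272 and 285 with shScr against 952 and 926 with shUHRF1. OAS3 held 85.9% ± 1.84 (SD, n = 2) of this sum in HCT116 shScr, 67.5% ± 2.49 in UF1hypo shScr and 52.9% ± 2.31 in UF1hypo shUHRF1. OAS1 held 1.03% ± 0.85, 22.6% ± 1.75 and 24.2% ± 1.58 in the same groups. OAS2 held 0.33% ± 0.19 in UF1hypo shScr and 6.87% ± 1.70 in UF1hypo shUHRF1. The family thus went from a mostly OAS3 pool to one in which all 4 had a clear share.

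Within a group, the order by mean TPM was OAS3, OAS1, OASL and OAS2 in both UF1hypo groups, and neighbours in that order did not overlap. In HCT116 the order was OAS3, OASL, OAS1 and OAS2. There OAS1 and OAS2 overlapped in HCT116 shScr, at 0.117 to 0.513 and 0.0722 to 0.122 TPM. By read coverage per base, scaled to sequencing depth, OAS1 was 16.8 and 19.1 and OASL was 19.6 and 20.0 reads per base per Gb in UF1hypo shUHRF1, so these 2 exchanged places. OAS3 held 62.2% ± 4.24 of the summed coverage and OAS1 held 14.2% ± 1.38 in that group. Coverage is averaged over the whole gene model and TPM over the transcripts that were assembled, so the 2 scales need not rank genes alike.

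None of the 3 reported genes of the 2-5A pathway partner list was called in any of the 4 comparisons. Over all tested genes, 7.39% were called higher and 1.14% lower for knockdown in UF1hypo, so no call among 3 genes says little. Their median log2 fold change for knockdown in UF1hypo was -0.29, beside 0.04 over all tested genes. ABCE1, a ribosome recycling factor, was 84.9 and 70.7 TPM in UF1hypo shScr and 32.0 and 88.0 TPM in UF1hypo shUHRF1. That last pair differed more than any other pair of replicates for ABCE1. These libraries also differed by GC content over all genes, and its part in the ABCE1 values was not tested. PDE12, a phosphodiesterase that degrades 2-5A, ranged from 10.5 to 16.4 TPM over the 8 libraries. AKAP7, which also has such an activity, ranged from 1.63 to 3.33 TPM.

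Other sensors and effectors of the response to double-stranded RNA moved with the OAS genes in part. The list also holds the adaptor MAVS and the DNA sensor CGAS. Of 9 listed, 8 were tested for knockdown in UF1hypo and 4 were called higher, beside 7.39% of all tested genes. The median log2 fold change was 1.15, beside 0.04 over all tested genes. DHX58, which encodes LGP2 and modulates the RIG-I-like receptors, went from 8.32 and 7.71 to 113 and 86.4 TPM, by 3.47 ± 0.33 on the log2 scale (limma adjusted p = 0.00038). IFIH1, which encodes MDA5, went from 41.4 and 38.8 to 105 and 144 TPM, by 1.59 ± 0.20 (adjusted p = 0.0016). DDX58, which encodes RIG-I, went from 30.2 and 23.5 to 57.1 and 110.3 TPM, by 1.54 ± 0.34 (adjusted p = 0.019). ZBP1, a sensor of Z-form nucleic acid, was listed at 0 in 5 of the 6 other libraries, at 0.0393 TPM in UF1hypo shScr replicate 2, and at 3.64 and 3.24 TPM in UF1hypo shUHRF1, through which alone it passed the filter.

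The 2 effectors best known beside OAS were not called there. EIF2AK2, the kinase PKR, was 50.3 and 41.6 TPM in UF1hypo shScr and 30.0 and 81.8 TPM in UF1hypo shUHRF1, and its groups overlapped. The 2 UF1hypo shUHRF1 libraries differed by GC content, as given above, and EIF2AK2 has 38.5% GC. The part of GC content in its spread was not tested. Between the lines with shScr, EIF2AK2 differed by 1.40 ± 0.38 and was not called (limma adjusted p = 0.080). ADAR, which edits double-stranded RNA, was 220.4 and 230.2 TPM in UF1hypo shScr and 296 and 303 TPM in UF1hypo shUHRF1, at a log2 fold change of 0.41 ± 0.14 (limma adjusted p = 0.10). MAVS, the adaptor of RIG-I and MDA5, stayed between 39.1 and 46.3 TPM in all 8 libraries. CGAS, a DNA sensor, was listed at 0 in 7 libraries and at 0.0748 TPM in the other.

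Between UF1hypo and HCT116 with shScr, 3 of 7 tested genes of the sensor and effector list were called higher, beside 2.59% of all tested genes. The median was 1.40, beside -0.05 over all tested genes. The called genes of this list were IFIH1 at 2.93 ± 0.20 (limma adjusted p = 0.00013), DDX58 at 2.46 ± 0.33 (adjusted p = 0.0041) and DHX58 at 1.85 ± 0.33 (adjusted p = 0.015). In the direct test of the 2 knockdown effects, IFIH1, DHX58 and ZBP1 were called and DDX58 was not (adjusted p = 0.18). There 4.54% of all tested genes were called higher. No gene of this list was called for knockdown in HCT116, where 0.0472% of all tested genes were called higher.

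Of 14 reported genes of interferon signalling, all were tested, and 3 were called higher both between the lines and for knockdown in UF1hypo. They were STAT2, IRF9 and IRF7. Of all tested genes, 2.59% were called higher between the lines and 7.39% for the knockdown. STAT2, a subunit of the complex that binds the ISRE, was 24.9 and 25.1 TPM in HCT116 shScr, 53.7 and 54.1 TPM in UF1hypo shScr, and 128 and 118 TPM in UF1hypo shUHRF1. It had log2 fold changes of 1.08 ± 0.15 between the lines and 1.18 ± 0.15 for the knockdown (limma adjusted p = 0.0047 and 0.0014). IRF9, which binds DNA in the same complex, was 3.46 and 4.07 TPM in HCT116 shScr, 30.9 and 32.5 TPM in UF1hypo shScr, and 109 and 106 TPM in UF1hypo shUHRF1. Its log2 fold changes were 2.78 ± 0.18 and 1.73 ± 0.18 (limma adjusted p = 8.4e-05 and 0.00055).

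IRF7, an interferon-inducible regulator of interferon genes, had 17.0 and 14.2 TPM in HCT116 shScr, 128 and 149.6 TPM in UF1hypo shScr, and 608 and 407 TPM in UF1hypo shUHRF1. Its log2 fold changes were 3.08 ± 0.23 and 1.84 ± 0.23 (limma adjusted p = 0.00017 and 0.0015). The receptor subunits IFNAR1, IFNAR2, IFNGR1, IFNGR2, IFNLR1 and IL10RB were called in none of the 4 comparisons, nor were the kinases JAK1 and TYK2. For knockdown in UF1hypo the median of the list was 0.44, beside 0.04 over all tested genes.

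The interferon genes on the list used here were at or near 0 TPM outside UF1hypo shUHRF1, apart from IFNE. The interferon-alpha genes were not on this list. Of the 7 ligands, 4 passed the filter for knockdown in UF1hypo, all through the UF1hypo shUHRF1 libraries alone, so that being higher there was largely set by the filter. They were 3 type III interferons and IFNE, a type I interferon of epithelium. IFNL1 was 0.627 TPM in one UF1hypo shScr library, listed at 0 in the other, and 14.0 and 9.55 TPM after knockdown, at 3.30 ± 0.29 on the log2 scale (limma adjusted p = 0.00021). IFNL3 was listed at 0 and at 0.112 TPM before, and at 10.3 and 4.65 TPM after. IFNL2 was 0.774 TPM and listed at 0 before, and 4.76 and 1.88 TPM after. IFNL2 and IFNL3 are near-identical copies, so reads may have been split between them.

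IFNE was 0.366 and 0.239 TPM in UF1hypo shScr and 1.56 and 5.54 TPM in UF1hypo shUHRF1. It was also 1.02 and 1.23 TPM in HCT116 shUHRF1 against 0.320 and 0.165 TPM in HCT116 shScr, and was not called there (limma adjusted p = 0.87). IFNB1, the main type I interferon of epithelial cells, was at most 0.385 TPM, and IFNK and IFNG were listed at 0 in all 8 libraries. In UF1hypo shScr, where OAS1, OAS3 and OASL were already called higher, no listed ligand exceeded 0.774 TPM. Interferon protein was not measured here, and the part of interferon in the OAS levels was not tested.

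Among 5 negative regulators, 2 were called higher for knockdown in UF1hypo, beside 7.39% of all tested genes. USP18, which removes ISG15 and damps type I interferon receptor signalling, was 4.23 and 5.08 TPM in HCT116 shScr, 25.7 and 25.8 TPM in UF1hypo shScr, and 127 and 104 TPM in UF1hypo shUHRF1. It was called between the lines (2.25 ± 0.19, limma adjusted p = 0.00035) and for the knockdown (2.11 ± 0.19, adjusted p = 0.00031). SOCS1, a JAK inhibitor, went from 6.06 and 6.68 to 19.8 and 15.6 TPM after knockdown in UF1hypo, by 1.34 ± 0.25 (adjusted p = 0.010). SOCS3, PIAS1 and PTPN6 were called in no comparison.

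The neighbours of the OAS genes on chromosome 12 were then examined. Reported here are 8 other protein-coding genes within 250 kb of the OAS1-OAS3-OAS2 cluster and 4 within 250 kb of OASL. None of these 12 was called in any of the 4 comparisons. Over all tested genes, 7.39% were called higher for knockdown in UF1hypo and 2.59% between the lines. At such shares, the lack of a call among 12 genes says little about the locus. For knockdown in UF1hypo the median log2 fold change was 0.19 over the 8 tested neighbours of the cluster and -0.08 over 3 tested neighbours of OASL.

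RPH3A, which encodes a synaptic vesicle protein, ends 6.98 kb before OAS1. It was at most 0.179 TPM in 6 libraries and was 1.17 and 0.854 TPM in UF1hypo shUHRF1. Its log2 fold change was 0.95 ± 0.20 (limma adjusted p = 0.017), just under the fold threshold. RPH3A passed the filter through UF1hypo shUHRF1 replicate 1 alone, so a higher value there was largely set by the filter. DTX1, 45.0 kb beyond OAS2, was 1.02 and 0.893 TPM in UF1hypo shScr and 3.82 and 1.61 TPM in UF1hypo shUHRF1, at 0.86 ± 0.30 (limma adjusted p = 0.10). The largest value between the lines was that of TPCN1, a lysosomal channel gene, at 0.78 ± 0.20 (adjusted p = 0.065).

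Within the family, the log2(TPM + 1) values of OAS1 and OAS3 had a Pearson r of 0.996 over the 8 libraries, which form 4 groups. The r was 0.983 for OAS3 and OASL, 0.965 for OAS1 and OASL, 0.921 for OAS2 and OASL, 0.850 for OAS2 and OAS3, and 0.810 for OAS1 and OAS2. OAS2 was thus the least alike, although it lies beside OAS3.

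Among 13781 protein-coding genes, the 5 with the pattern most like OAS1 over the 8 libraries were HERC6, IFITM1, CCND1, RNF113A and FXYD3, with r from 0.996 to 0.998. For OAS3 they were KRT13, PSMB9, IFITM1, CFB and HSH2D (0.997 to 0.999). IFITM1, which encodes an antiviral membrane protein, had means of 2.27, 1.77, 317 and 2228 TPM in HCT116 shScr, HCT116 shUHRF1, UF1hypo shScr and UF1hypo shUHRF1. For OASL they were CALR, TMBIM1, USP18, VSIR and ETV7 (0.997).

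For OAS2 the closest were GBP1, DDO, PSMB8, VSIG2 and APOBEC3G (0.995 to 0.999). PSMB8, an immunoproteasome subunit, had means of 0.746, 0.855, 2.30 and 92.5 TPM in the same order. APOBEC3G, an antiviral cytidine deaminase, was listed at 0 in HCT116 shScr and had means of 0.291, 0.746 and 37.3 TPM in the other 3 groups. VSIG2 had means of 0.463, 0.407, 0.540 and 1.49 TPM, so a like pattern does not mean a like level. The measure is a correlation over libraries that form 4 groups, so many genes that follow the groups score highly.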

How the data were processed

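The 8 deposited gene abundance tables hold coverage, FPKM and TPM per gene. The authors made the TPM values, the FPKM values and the coverage signal with HISAT2 (2.0.4) and StringTie (2.1.4) on GRCh38 after read trimming, 1 table per library, with no counts, so the authors' count-based test was not repeated. Entries sharing a gene identifier were summed. Protein-coding genes (GENCODE 44) with more than 1 TPM in at least 1 library of a comparison were tested with limma (3.58.1) on log2(TPM + 1), 8 libraries in 1 fit of 4 group means with a variance trend and 4 residual degrees of freedom. Calls needed an adjusted p under 0.05 and a log2 fold change beyond 1. The script was tested on simulated data. TPM rests on an estimated 5.42 to 7.83 Gb of aligned bases, which limits the precision of genes under 1 TPM. This depth was inferred from the ratio of coverage to FPKM and was not counted from reads. The text names the 4 members, fixed pathway lists, neighbours within 250 kb, the 5 most alike genes per member, UHRF1, and the reference genes ACTB and GAPDH. The members and lists were chosen with earlier results of these data known. GC content and length came from GENCODE 44 and matched all 19960 protein-coding genes. Some genes of these lists and neighbourhoods are not reported here, and the lists were counted without them. Promoter sequences came from a RefSeq-derived table, in which 2 of the 4 members (OAS1 and OAS3) were matched. There were 19 planned and 3 added alternatives.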

Additional observations from a re-analysis of the deposited data

Results flagged for a closer look

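All 4 OAS genes were called for a stronger response to shUHRF1 in UF1hypo than in HCT116, by the limma test of the difference itself. For OAS1 and OAS2 the HCT116 response was taken from values under 1 TPM, near the floor. The difference of the log2 fold changes was 2.03 for OAS1, 5.20 for OAS2, 1.38 for OAS3 and 2.37 for OASL. In each case the UF1hypo libraries with shUHRF1 did not overlap those with shScr, but this adds no support. An exact permutation test of 2 against 2 libraries cannot go below p = 0.33. The share of all genes with such a separation is not given here. The calls of OAS1 and OAS3 were lost when certain single libraries were left out, as given above. With 2 libraries in each group, no single library was tested for standing apart from its group.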

How the results depend on the processing

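The members called were 4 of 4 for knockdown in UF1hypo, 0 for knockdown in HCT116 and 3 or 4 between the lines under every alternative. For the difference of the knockdown effects 2 to 4 were called when each library was left out in turn, with 2 without HCT116 shUHRF1 replicate 1 or UF1hypo shScr replicate 2. In HCT116 the uncalled log2 fold changes ran from -0.10 to 0.15 for OAS3 and from -0.25 to 0.41 for OASL when each library was left out, crossing 0. When a library was left out, the lone library of its group was assumed to vary like the other groups. The number of all genes called moved more than the members. For knockdown in HCT116 it was 9, and became 30 with 0.1 added, 2 with no TPM filter, 89 on the 4 libraries alone, 3 with median-ratio scaling, 5 without a variance trend, 71 with the GC content and length correction, 101 with library weights, 0 on depth-scaled coverage (917 at an unadjusted p under 0.05), 3 over all annotated genes and 0 to 0 with each library left out (382 to 596 at an unadjusted p under 0.05). For knockdown in UF1hypo it was 1162, and became 563 on the 4 libraries alone, 749 on FPKM, 539 with library weights, 496 on depth-scaled coverage and 655 to 2255 with each library left out. For the difference it was 702, and became 448 with 0.1 added, 419 with library weights, 419 on depth-scaled coverage and 171 to 2142 with each library left out. Between the lines it was 455, and became 241 on depth-scaled coverage and 149 to 190 with each library left out. The cause of these changes was not tested. In the difference, 625 genes were higher and 77 lower, against 357 and 112 with quantile normalization and 778 and 269 with the GC content and length correction. Quantile normalization shifted the median log2 fold change of all genes by -0.10 for knockdown in UF1hypo and by -0.14 for the difference. Same-numbered libraries did not deviate together (correlations from -0.40 to 0.05 over the 6 pairs of groups), so the numbers were not taken as pairing. With the replicate number as a block, 1 gene was called for knockdown in HCT116, 1110 for knockdown in UF1hypo, 471 for the difference and 369 between the lines, with no member's call changed. Crossing the block in UF1hypo, where the correlation was -0.40, gave 1207. Depth-scaled coverage, all annotated genes and the crossed block were chosen after seeing the data. Genes under 1 TPM, such as OAS1 and OAS2 in HCT116, are limited by depth.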
